A study of Mus musculus with 6 samples.

Results

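The genes encoding receptors for serotonin, dopamine, histamine, noradrenaline and adrenaline, and acetylcholine were examined in hippocampal RNA from mice. They were taken as every protein-coding gene whose symbol starts with Htr, Drd, Hrh, Adra, Adrb, Chrm or Chrn followed by the number or letter of a receptor or receptor subunit, which gave 53 of the 54532 genes in the deposited table. Within this rule the symbols, and not the values, decided which genes are members, but the set was chosen with earlier results of these data known. The set held 14 serotonin, 5 dopamine, 4 histamine, 6 alpha-adrenergic, 3 beta-adrenergic, 5 muscarinic and 16 nicotinic receptor genes.

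The 6 libraries came from 3 wild-type (WT) mice and 3 mice called TG, which carry the G82R and L85P substitutions together in Slc1a2, the gene of the astrocytic glutamate transporter GLT-1. Per the study's methods the substitutions were placed in the endogenous gene by CRISPR/Cas9 on the C57BL/6N background and no separate promoter drives them. Neither group received an agent. The methods describe TG mice of both sexes, mostly male, with WT littermates as controls, from a line bred through heterozygous founders' offspring. Which of them gave these 6 libraries, and their ages and zygosity, are not given in the sources used here. The labels number the mice of each group but name no litter or batch, and the p-values below measure only the spread between these libraries.

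The amines reach the hippocampus along axons whose cell bodies lie in the brainstem and hypothalamus, and acetylcholine comes mainly from the medial septum. The messages of receptors on hippocampal cells are therefore made locally. Those for making the transmitters, and those of receptors on the incoming axons, are made mostly elsewhere. Most of the receptors act through G proteins: Gs raises cyclic AMP, Gi lowers it, and Gq activates phospholipase C. The nicotinic receptors and the Htr3 serotonin receptor are ion channels built from 5 subunits.

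Expression was given as FPKM, a read count scaled to the length of the gene model and to the size of the library, which corrects for gene length and so allows levels of different genes to be compared. Between 16081281 and 18751057 reads fell on genes in each library. Slc1a2 itself was read at FPKM 202, 200 and 177 in WT and 222, 207 and 217 in TG. The TG values were all higher, with an adjusted p of 0.789 in limma, and a message level does not show whether the substitutions are present. By Western blot the paper reports that GLT-1 protein was almost absent from the hippocampus of TG mice, a measure of protein and not of message. All 8 markers of hippocampal neurons were read in every library, among them Neurod6, a pyramidal neuron transcription factor, at FPKM 71.5 to 91.0. Markers of the choroid plexus, the epithelium that makes cerebrospinal fluid, set 2 TG libraries apart. Ttr, its transthyretin gene, stood at FPKM 73.0, 49.8 and 66.6 in WT1, WT2 and WT3 and at 1168, 3705 and 57.7 in TG1, TG2 and TG3. The median of the 18 choroid plexus markers exceeded the WT mean by 3.10 (TG1), 4.60 (TG2) and 0.13 (TG3) log2 units. In tissue RNA, fewer cells of a type and less RNA per cell cannot be told apart.

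The promoters of the 3 receptor genes whose TG libraries all lay above their WT libraries are printed here. Genes of this pattern made up 7.69% of the members tested, near the 6.35% of all genes tested. The 3 had an adjusted p of 0.786 to 0.789 in limma, so the choice of promoters marks no called difference. Each promoter runs from 250 bases before to 50 bases after the RefSeq transcription start. Build GRCm38.p6 is used, each is written 5′ to 3′ on the strand of the gene, and capitals mark a match on either strand to any of 5 motifs. The GC box bound by Sp1 was searched as GGGCGG. The core of the cyclic AMP response element was searched as TGACG. The TATA box was searched as TATAAA. The left part of the RE1 element of neuronal genes was searched as TTCAGCAC. The E-box was searched as CAGCTG.
Chrm4, chr2:91921939-91922238, plus strand: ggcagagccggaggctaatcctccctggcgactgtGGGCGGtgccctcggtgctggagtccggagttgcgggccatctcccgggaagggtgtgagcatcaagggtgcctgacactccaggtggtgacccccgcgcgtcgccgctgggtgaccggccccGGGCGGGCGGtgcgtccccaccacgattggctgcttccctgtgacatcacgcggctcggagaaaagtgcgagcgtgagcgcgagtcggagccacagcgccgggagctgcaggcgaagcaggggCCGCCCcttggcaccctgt
Chrna4, chr2:181039128-181039427, minus strand: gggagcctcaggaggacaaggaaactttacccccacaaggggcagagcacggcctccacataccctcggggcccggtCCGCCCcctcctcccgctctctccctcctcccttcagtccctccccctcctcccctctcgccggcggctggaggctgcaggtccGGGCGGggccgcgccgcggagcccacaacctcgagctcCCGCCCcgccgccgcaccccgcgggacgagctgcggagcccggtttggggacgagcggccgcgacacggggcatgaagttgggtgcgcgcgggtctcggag
Htr5a, chr5:27841697-27841996, plus strand: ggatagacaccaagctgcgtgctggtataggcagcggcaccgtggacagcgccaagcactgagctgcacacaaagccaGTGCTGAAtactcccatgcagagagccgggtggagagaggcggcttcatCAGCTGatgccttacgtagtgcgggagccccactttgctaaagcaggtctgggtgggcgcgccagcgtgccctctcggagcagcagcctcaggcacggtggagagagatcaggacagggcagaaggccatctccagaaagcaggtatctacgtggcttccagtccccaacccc
The promoters of Chrm4 and Chrna4 held GC boxes, and that of Htr5a an RE1 left part and an E-box. RefSeq promoters were found for 40 of the 53 receptor genes. A GC box stood in 22 of the 40 (55.0%) and in 35.7% of all 32851 promoters of the same length. The 40 hold 1 promoter per gene, the nearest to the start of its model. The 32851 hold every listed start, so a gene can count more than once, and the shares compare unlike sets. The cyclic AMP element core stood in 6 (15.0%) against 20.8%, the TATA box in 2 (5%) against 13.6%, the RE1 left part in 1 (2.50%) against 1.17%, and the E-box in 8 (20%) against 16.3%. The receptor promoters had a median GC content of 58.5% against 52.7% and a median of 13.5 CpG dinucleotides against 7. A match describes letters in this window only. The RefSeq start of Chrm4 lies 5060 bases from its deposited gene model, which spans only chr2:91927249-91928688, 1440 bases in 1 exon, so its FPKM counts reads in that stretch alone. The start used for Chrna4 lies 4369 bases from the 5′ end of its model, and that for Htr5a 202 bases.

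Of the 53 receptor genes, 31 averaged FPKM 1 or more over the 6 libraries, 8 lay between 0.1 and 1, and 14 lay below 0.1 and were not tested. The summed FPKM of all 53 was 235, 232 and 225 in WT and 278, 229 and 233 in TG. TG1 alone stood above the rest.

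The alpha-adrenergic gene Adra1d, a Gq-coupled noradrenaline receptor, was the most abundant of all the members. It was read at FPKM 42.9, 47.5 and 40.7 in WT and 58.2, 40.4 and 44.2 in TG, and the groups overlapped. Adra1d made up 66.9% to 72.0% of the summed alpha-adrenergic FPKM in each library. Adra2c, a Gi-coupled receptor, stood at 11.2, 11.3 and 13.2 in WT and 14.4, 11.9 and 12 in TG. Adra2a, the Gi-coupled receptor known as the autoreceptor of noradrenaline axons, stood at 7.17, 4.89 and 4.89 in WT and 7.13, 5.47 and 5.93 in TG. Adra1b, another Gq-coupled receptor, stood at 1.54, 1.37 and 1.52 in WT and 1.79, 1.45 and 1.96 in TG. All 3 overlapped between the groups. The Gs-coupled Adrb1, the most abundant beta-adrenergic gene, was read at 10.9, 10.1 and 11.7 in WT and 12.4, 10.1 and 11.3 in TG.

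Chrm1, the Gq-coupled muscarinic receptor of principal neurons, ranked second with FPKM 36.3, 41.7 and 33.7 in WT and 43.0, 36.6 and 37.9 in TG. It carried 60.9% to 66.6% of the summed muscarinic FPKM. Chrm3, also coupled to Gq, was read at 9.0, 8.75 and 10.3 in WT and 8.20 to 10.1 in TG. Chrm5 stood at 2.16, 2.09 and 1.77 in WT and 2.73, 1.40 and 2.01 in TG. The Gi-coupled Chrm2, a presynaptic receptor of cholinergic axons, stood at 1.49, 1.20 and 1.09 in WT and 1.72, 1.10 and 1.74 in TG. These 4 genes overlapped between the groups, while the fifth, Chrm4, did not.

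Among the histamine receptors the Gi-coupled Hrh3, which curbs histamine release, was the most abundant, with FPKM 20.9, 18.7 and 21.5 in WT and 24.9, 19.5 and 19.8 in TG. Hrh1, coupled to Gq, stood at 1.98, 1.04 and 1.52 in WT and 1.41, 2.36 and 2.38 in TG. Hrh2, coupled to Gs, stood at 1.14, 1.18 and 0.990 in WT and 1.15, 1.10 and 1.44 in TG. No histamine receptor separated the groups.

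Htr1a, the Gi-coupled serotonin receptor dense in CA1 and the dentate gyrus, led its family with FPKM 10.3, 8.42 and 8.59 in WT and 10.2, 9.19 and 9.53 in TG. Htr3a, the subunit of the serotonin-gated channel found in interneurons, stood at 7.63, 6.45 and 8.46 in WT and 7.65, 6.51 and 5.74 in TG. Htr2c, the Gq-coupled receptor also abundant in choroid plexus epithelium, stood at 5.49, 4.73 and 5.41 in WT and at 7.62, 10.3 and 4.73 in TG. TG2 and TG1 were high, and TG3 was level with WT2, the lowest WT library. Htr2a, coupled to Gq, stood at 3.63, 3.83 and 3.05 in WT and 4.08, 3.08 and 3.39 in TG. Htr5b, which is a gene in mice and a pseudogene in humans, stood at 2.99, 3.87 and 3.89 in WT and 3.95, 4.01 and 2.32 in TG. Neither of these separated the groups. The Gs-coupled Htr7 stood at 3.79, 2.48 and 3.98 in WT and 4.37, 3.17 and 2.83 in TG. Htr4, also Gs-coupled, stood at 2.88, 3.40 and 3.84 in WT and 3.85, 3.75 and 2.70 in TG. Htr6, the remaining Gs-coupled serotonin receptor, stood at 2.84, 3.57 and 2.81 in WT and 3.48, 2.41 and 3.00 in TG. The groups overlapped in all 3. Htr1b, the Gi-coupled autoreceptor of serotonin axon endings, stood at 1.95, 1.38 and 1.68 in WT and 1.81, 1.84 and 1.72 in TG.

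Dopamine receptor messages were low. The Gs-coupled Drd5 was the most abundant, at FPKM 2.54, 2.59 and 2.91 in WT and 2.87, 1.93 and 2.00 in TG. Drd1, also Gs-coupled, stood at 1.71, 1.40 and 1.41 in WT and 1.24, 1.21 and 1.40 in TG. The Gi-coupled Drd2 stood at 1.36, 1.02 and 0.860 in WT and 1.19, 0.964 and 0.935 in TG. TG1 was the highest TG library for Drd5 and Drd2, and for Drd1 the highest was TG3.

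Among the nicotinic subunits Chrnb2, the beta subunit that pairs with Chrna4, led with FPKM 9.24, 8.84 and 8.59 in WT and 10.2, 8.25 and 9.32 in TG. Its model overlaps Adar on the other strand. Models of other members also overlap genes on the other strand, among them those of Adra1d (Gm14285), Chrm1 (Gm22820) and Hrh3 (Gm17180). The strand setting of the counts is not given in the sources used here. Chrna7, which forms a channel on its own, stood at 7.06, 7.89 and 5.54 in WT and 7.56, 6.75 and 6.34 in TG. Chrna5, an accessory subunit, stood at 1.37, 1.41 and 1.5 in WT and 1.46, 1.36 and 1.28 in TG. Chrnb2, Chrna7 and Chrna5 all overlapped between the groups. Chrnb1, known as the beta subunit of the muscle receptor, stood at 1.07, 1.13 and 1.12 in WT and 0.849, 0.904 and 0.963 in TG, where every TG library lay below every WT library.

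**Figure D1:**
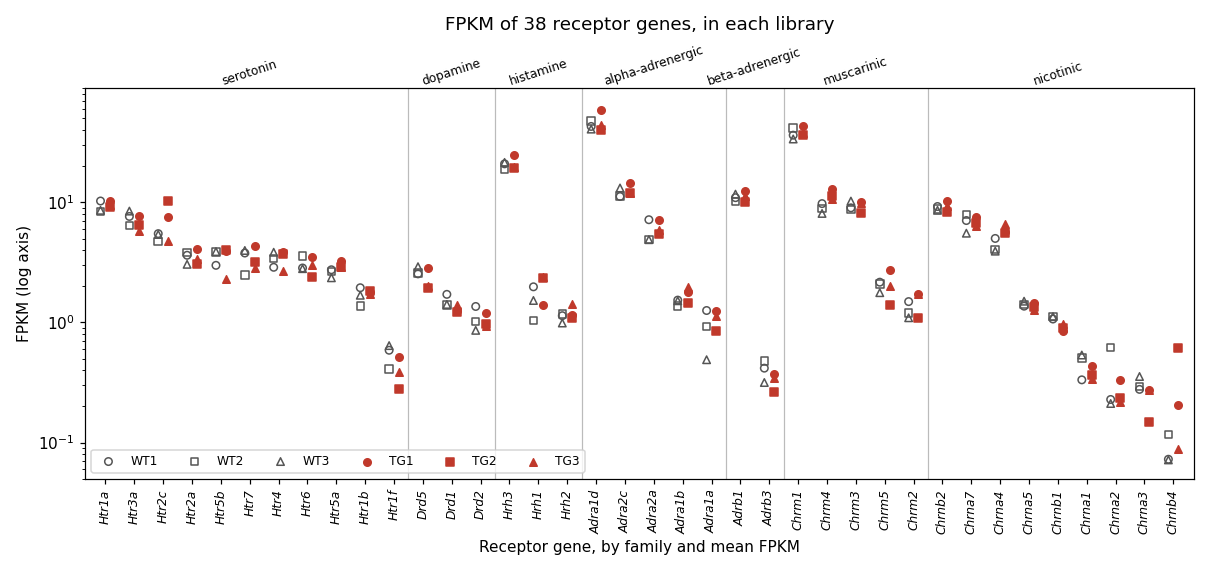
FPKM of 38 tested receptor genes (horizontal axis, by family and then mean level) on a log axis, with 1 point for each of the 3 WT and 3 TG libraries. Levels ran from Adra1d and Chrm1 at FPKM 33.7 to 58.2 down to Chrnb4 at 0.0717 to 0.614, and for most genes the WT and TG points lie on each other.

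The 8 members between FPKM 0.1 and 1, among them Adra1a, Htr1f, Chrna1, Adrb3, Chrna2, Chrna3 and Chrnb4, had 5 to 203 reads in a library. Of the 14 members below 0.1, Chrnd, Chrng, Chrna9 and Hrh4 had 0 reads in all 6 libraries, which allows up to 3 reads, or FPKM 0.0385 to 0.123, in each. Chrnd and Chrng belong to the muscle receptor and Chrna9 to the receptor of cochlear hair cells. The other 10 were Htr2b, Chrnb3, Drd4, Adra2b, Htr1d, Chrna10, Chrna6, Chrne, Htr3b and Drd3, with at most 8 reads in any library. Chrna10 had 2, 3 and 1 reads in WT and 0 in each TG library, and for reads this few the groups were not compared. Such limits cover counting error only.

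TG was then compared with WT to ask whether the receptor messages differ when GLT-1 is altered. On the log2(FPKM + 0.1) scale, on which the difference of a low gene is understated, limma was fitted to the 20952 genes that averaged FPKM 0.1 or more, and p-values were adjusted by Benjamini-Hochberg over all of them. None of the 39 members tested passed an adjusted p of 0.05, as against 2 genes or 0.00955% of all genes tested. At an unadjusted p under 0.05 there were 2 members (5.13%), near the 5.91% of all genes tested. Both were higher in TG, where 3.13% of all genes tested were called, and 0 were lower, where 2.78% were called. The lowest TG library exceeded the highest WT library in 3 members (7.69%) against 6.35% of all genes, and below in 2 members (5.13%) against 5.71%. The shares of members called are close to those of all genes. The log2 fold change was above 0 in 25 of the 39 members (64.1%) and in 49.6% of all genes tested. The median over the members was 0.04, and over all genes it was -0.002.

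Chrm4, the Gi-coupled muscarinic receptor, was read at FPKM 9.77, 8.86 and 8.09 in WT1, WT2 and WT3 and at 12.9, 11.3 and 10.7 in TG1, TG2 and TG3, from 206 to 293 reads a library. The groups did not overlap, at 11.6 ± 1.12 against 8.90 ± 0.841 (mean ± SD, n = 3 per group). The log2 fold change was 0.38 with a standard error of 0.10 and a 95% interval of 0.14 to 0.62. The limma p was 0.00713, and the adjusted p of 0.786 did not pass. The choroid plexus markers were high in TG1 and TG2, the libraries with the 2 highest Chrm4 values. With the choroid plexus score as a covariate the log2 difference was 0.29 (unadjusted limma p 0.107), and without TG1 and TG2, which leaves TG3 as the only TG library, it was 0.27. The part of the choroid plexus RNA in the Chrm4 values was not tested further. Relative to Chrm1 in the same library, the Chrm4 level was 0.269, 0.212 and 0.240 in WT and 0.299, 0.309 and 0.282 in TG. Relative to the less abundant Chrm2 it was 6.54, 7.40 and 7.39 in WT and 7.46, 10.3 and 6.15 in TG. The groups overlapped in that ratio, and TG3 was the lowest library.

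Chrna4, the alpha subunit of the main high-affinity nicotinic receptor of the brain, was read at FPKM 5.01, 4.04 and 3.92 in WT and at 5.69, 5.53 and 6.64 in TG. The groups did not overlap, at 4.33 ± 0.594 against 5.95 ± 0.598 (mean ± SD, n = 3 per group). The log2 fold change was 0.46 with a standard error of 0.12 and a 95% interval of 0.16 to 0.75. The limma p was 0.00760 and the adjusted p 0.786, which did not pass. TG3, the library with choroid plexus markers near the WT level, was the highest, and WT1 was the highest WT library. The neocortex markers had medians of 0.18, -0.09 and -0.06 log2 units from the WT mean in WT and 0.17, -0.07 and 0.35 in TG. Those of habenula and thalamus had 0.25, -0.30 and -0.18 in WT and 0.12, 0.02 and 0.24 in TG. Both lists were highest in WT1 and TG3 within the groups, while interneuron markers were highest in WT3 and TG1. The part of such RNA in the Chrna4 values was not tested. With the choroid plexus score as a covariate the log2 difference was 0.58 (unadjusted limma p 0.0169), and without TG1 and TG2, where TG3 is the only TG library, it was 0.61. Its partner Chrnb2 had a log2 fold change of 0.05 with a 95% interval of -0.17 to 0.27. The Chrna4 level relative to Chrnb2 was 0.542, 0.457 and 0.457 in WT and 0.557, 0.671 and 0.712 in TG, so the ratio in TG1 lay just above that in WT1.

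Htr5a, a Gi-coupled serotonin receptor, was read at FPKM 2.75, 2.65 and 2.35 in WT and 3.28, 2.91 and 2.88 in TG. Its TG libraries lay above its WT libraries, by 0.22 ± 0.11 on the log2 scale (SE, adjusted p = 0.789 in limma). Chrnb1 lay lower in every TG library, with a log2 fold change of -0.26 ± 0.15 (SE, adjusted p = 0.789 in limma). Chrna3, the alpha subunit of the ganglionic nicotinic receptor, was read at 0.277, 0.294 and 0.355 in WT and 0.276, 0.148 and 0.273 in TG, from 14 to 35 reads. WT1 and TG1 differed in the third digit, and the log2 fold change of -0.32 had a standard error of 0.31. Chrna3 and Chrnb4, which lie beside each other and Chrna5 on chromosome 9, are members and were tested. They averaged below FPKM 1 with an unadjusted limma p above 0.05, so the rule for printing values left them out. They are described because of their values.

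**Figure D2:**
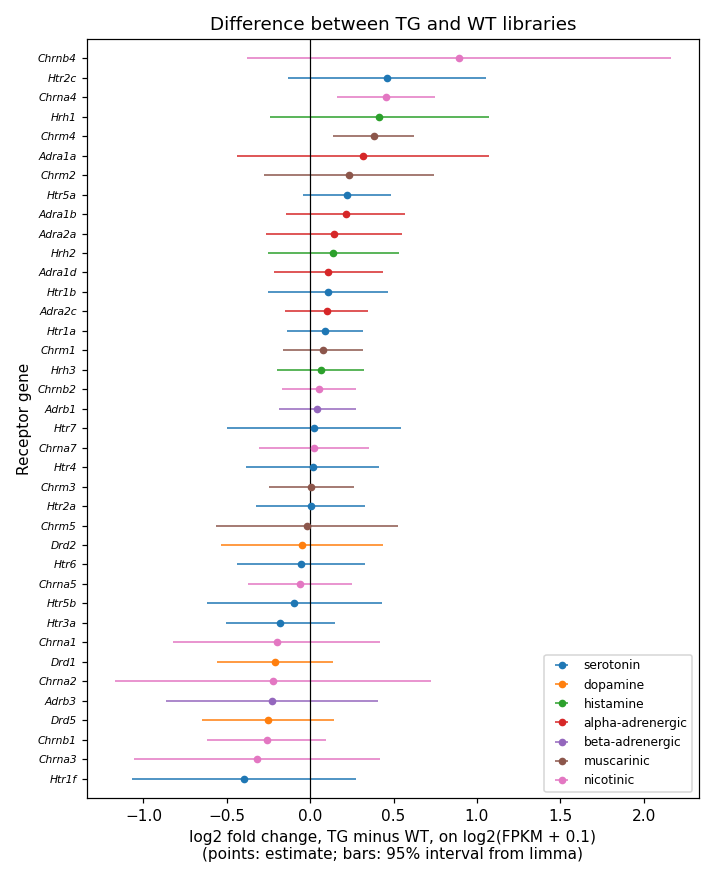
Log2 fold change of TG against WT for 38 tested receptor genes, as a point with its 95% interval from limma, with 0 marked. The intervals of Chrm4 (0.14 to 0.62) and Chrna4 (0.16 to 0.75) lie above 0, and the others span it.

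Htr2c and Chrnb4 were highest in TG2 and TG1, the libraries with high choroid plexus markers. For Htr2c the log2 fold change was 0.46 with a standard error of 0.25 (unadjusted limma p 0.110). It was -0.13 without TG1 and TG2, which leaves TG3 as the only TG library, and -0.19 with the choroid plexus score as a covariate. The markers were high only in TG libraries, so the score goes in part with the group. The part of choroid plexus RNA in the Htr2c and Chrnb4 values was not tested further. The level of Htr2c relative to Htr2a was 3.33 in TG2 and 1.23 to 1.87 in the other 5 libraries. Chrnb4, the beta subunit of the ganglionic receptor, was read at FPKM 0.0726, 0.116 and 0.0717 in WT and 0.204, 0.614 and 0.0892 in TG. It rested on 5, 7 and 5 reads in WT and 12, 41 and 6 reads in TG, with TG2 far above the rest. Its WT mean of 0.0869 lay under the filter of 0.1 and its TG mean of 0.302 above it, so it was tested only through the group in which it was high. Its log2 difference of 0.89 became 0.03 without TG1 and TG2, which leaves 1 TG library. For Htr2c, leaving out TG3 instead gave a log2 difference of 0.76 (unadjusted limma p 0.00389). The 18 choroid plexus markers were all read, 12 of them higher in TG at an unadjusted p under 0.05, and their summed FPKM was 60.2 to 89.0 in WT against 71.6 to 3889 in TG.

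**Figure D3:**
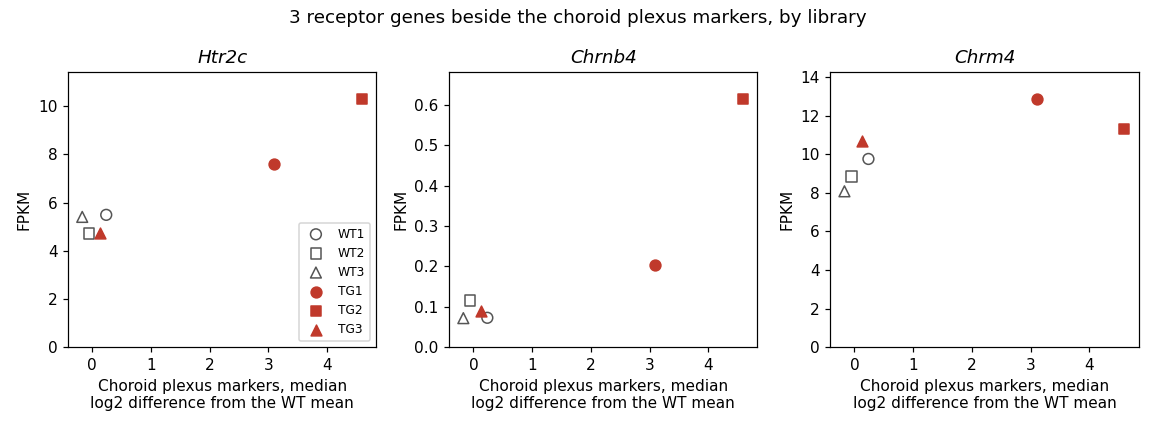
FPKM of Htr2c, Chrnb4 and Chrm4 (vertical axes, from 0) against the median log2 difference of the 18 choroid plexus markers from the WT mean, with 1 point per library. TG1 and TG2 stand at 3.10 and 4.60 on the horizontal axis, where Htr2c (7.62 and 10.3) and Chrnb4 (0.204 and 0.614) are high, while Chrm4 is also above the WT libraries in TG3.

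By family, the 5 tested alpha-adrenergic genes all had log2 fold changes above 0 (median 0.14), as did all 3 histamine genes (median 0.14), and all 3 dopamine genes lay below 0 (median -0.21). Of the muscarinic genes 4 of 5 lay above 0 (median 0.08), of the beta-adrenergic 2 of 3 (median 0.04), of the serotonin genes 7 of 11 (median 0.02) and of the nicotinic 4 of 9 (median -0.06). By coupling, 8 of 9 Gq genes, 8 of 11 Gi genes, 5 of 9 Gs genes and 4 of 10 channel genes lay above 0. Of the 39 genes only Chrm4 and Chrna4 reached an unadjusted p under 0.05, so these signs are a description. They rested in part on TG1, in which 32 of the 39 members lay above the WT mean against 13 in TG2 and 19 in TG3. In WT1, WT2 and WT3 the numbers were 25, 16 and 19. Over all genes tested, 48.7% lay above the WT mean in TG1, against 82.1% of the members. Without TG1 the members' median was -0.05, and 15 of the 39 lay above 0. Without TG1 the serotonin genes above 0 numbered 4 of 11 (median -0.11), the nicotinic 2 of 9, the muscarinic 3 of 5, the alpha-adrenergic 4 of 5, the histamine 2 of 3, the beta-adrenergic 0 of 3 and the dopamine 0 of 3. Drd5 then had an unadjusted limma p of 0.0152. The dopamine genes were not below 0 in every setting, since 1 of the 3 lay above 0 without TG3 and 1 without WT1. TG1 also had the lowest oligodendrocyte markers, whose median lay at -0.66 against -0.20 in TG2 and -0.06 in TG3. The part of these marker differences in the receptor values was not tested.

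**Figure D4:**
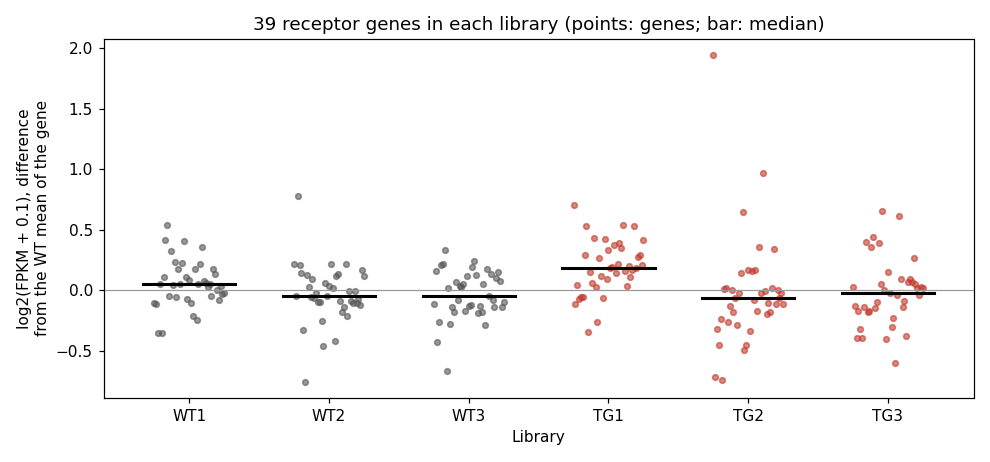
Difference of log2(FPKM + 0.1) from the gene's WT mean for the 39 tested receptor genes in each library, with 1 point per gene and a bar at the median. The bars stand at 0.06, -0.04 and -0.05 for the WT libraries and at 0.18, -0.07 and -0.02 for the TG libraries, TG1 being the highest.

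The spread between replicates sets how closely each difference was measured. The median standard error of the log2 fold change was 0.11 for the 14 members averaging FPKM 5 or more, 0.17 for the 17 members from 1 to 5, and 0.32 for the 8 below 1. The 95% interval lay within 1 log2 unit of 0 for 32 of the 39 and within 0.5 for 15. In this fit differences were thus measured more closely for the abundant receptors than for the scarce ones. The fit draws the spread of each gene toward that of genes of like level, so part of this relation comes from the fit itself. Of the 14 at FPKM 5 or more, 9 had an interval within 0.5 of 0. The intervals are not adjusted for the number of genes. Chrm4 at 0.38 and Chrna4 at 0.46, both among the 14, did not pass the adjusted threshold.

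The other genes of the pathway gave no call. Over 7 lists of enzymes, transporters, accessory proteins, G proteins, effectors and receptor regulators, 61 of 70 genes were tested, and 0 passed the adjusted threshold (smallest adjusted p 0.789 in limma) or an unadjusted p under 0.05 in either direction. The median log2 fold change over them was 0.04. Of the genes for transmitter synthesis 5 of 8 averaged FPKM 0.1 or more and were tested, and of those for uptake and packaging 4 of 10. Some messages of these 2 lists were near the limit of detection. No library held more than 19 reads of Pnmt, Tph1, Chat, Slc5a7, Slc6a3, Slc18a1, Slc18a3 or Slc6a4. The noradrenaline transporter gene Slc6a2 went unread in all 6 libraries. Ddc, the enzyme that completes dopamine and serotonin synthesis, stood at FPKM 1.92, 1.85 and 2.05 in WT and 1.33, 1.65 and 1.79 in TG, lower in every TG library (log2 fold change -0.28, adjusted p = 0.789 in limma). Slc29a4, a monoamine transporter, stood at 9.20, 11.4 and 8.85 in WT and 12.8, 21.2 and 7.62 in TG, high in TG1 and TG2 as the choroid plexus markers were. Maoa, which encodes a breakdown enzyme of the amines, had a log2 fold change of -0.10. Rapsn, which clusters the muscle nicotinic receptor, had 0.49 on 7 to 15 reads a library, and Lynx1, which binds nicotinic receptors, 0.04. The G protein genes Gnaz and Gnai1 had log2 fold changes of 0.19 and -0.09, the cyclase genes Adcy8 and Adcy1 0.25 and 0.31, the phosphatase inhibitor gene Ppp1r1b 0.31 and the receptor kinase gene Grk2 0.03, none of them past the adjusted threshold.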

How the data were processed

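Hippocampal RNA from 3 WT and 3 TG mice had been sequenced on an Illumina HiSeq instrument. The labels name RNeasy and SMARTer kits and the study's methods Trizol and NEBNext. The authors counted reads with HTSeq version 0.6.0 and deposited FPKM values per gene. The builds in the submitters' processing notes are GRCm38 and mm10, and the aligner and strand setting are not given in the sources used here. All values came back as whole reads (100% within 0.05 reads) when divided by the value of 1 read. Library totals are reads on genes.

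Genes averaging FPKM 0.1 or more (20952) entered the test on log2(FPKM + 0.1) with limma 3.58.1 in R 4.3.3 (lmFit, eBayes with trend, Benjamini-Hochberg, threshold 0.05). Scripts were tested on simulated data. The smallest two-sided exact permutation p for 3 against 3 is 0.1, and none was used. Members and lists were chosen with earlier results of these data known. Values are printed for members averaging FPKM 1 or more or with an unadjusted p under 0.05, for the most abundant member of each family, and in each pathway list for its most abundant gene and the gene of lowest p, except that some values are not reported here. Of the 53 members, 49 had the same start and end in GENCODE as in the table. Promoters are from RefSeq (GRCm38.p6). Marker lists covered hippocampal neurons, interneurons, choroid plexus, striatum, habenula and thalamus, neocortex, astrocytes, oligodendrocytes, microglia, endothelium, pericytes, meninges and ependyma, and at an unadjusted p under 0.05 their counts were 12 of 18 higher for choroid plexus, 2 of 5 higher for endothelium, 1 of 6 higher each for neocortex and microglia, 1 of 6 lower for oligodendrocytes, 2 of 5 lower for ependyma and 0 for the rest. Alternatives changed the pseudocount, filter, normalization, variance trend, gene set and test, left out libraries, or added the replicate block or the choroid plexus score.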

Additional observations from a re-analysis of the deposited data

How the results depend on the processing

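Of the 31 members with a mean FPKM of at least 1, 16 kept their sign in all 17 alternatives, and 20 lay within 1 standard error of 0. No member passed the adjusted threshold in any of them. The number of all genes past it, 2 as reported, was 0 with a pseudocount of 0.01 or 1, without a filter, over protein-coding genes, with voom on the recovered reads, with the replicate block, with the choroid plexus score and without TG1 and TG2 (a choice made after seeing the data). It was 1 at a mean FPKM of at least 1, 9 without the variance trend and 0 to 6 leaving out 1 library. Members lower in TG at an unadjusted p under 0.05 numbered 1 without a filter (Chrna10, with 2, 3 and 1 reads in WT and 0 in TG), 1 without the trend (Chrnb1) and 0 to 1 leaving out 1 library (Drd5 without TG1), against 0. Those higher, 2 as reported, were 1 (Chrna4) with the choroid plexus score, 1 (Chrna4) without TG1 and TG2, where the lone TG library is assumed to vary like the WT libraries, and 2 to 4 leaving out 1 library (Htr2c and Chrnb4 joined without TG3, Chrnb4 being tested only through TG, where it was high). Members with groups that do not overlap rose from 5 to 17 without TG1 and TG2 and to 7 to 10 leaving out 1 library, where fewer samples make separation easier. Htr2c reversed to -0.19 with the choroid plexus score and to -0.13 without TG1 and TG2. The Chrm4 difference ranged from 0.27 to 0.45 and that of Chrna4 from 0.38 to 0.61.

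With the replicate block the members gave 0 calls and the median log2 fold change was 0.04, with 2 members higher and 0 lower at an unadjusted p under 0.05. Libraries of the same number correlated at 0.013, 0.043 and 0.003 in their deviations from the group means, so the numbers were not taken to pair the mice. Depth limits the 8 members below FPKM 1 and the 14 that were not tested.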
